A study of Mus musculus with 94 samples.

Results

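The Toll-like receptors Tlr1, Tlr2, Tlr3, Tlr4, Tlr5, Tlr6, Tlr7, Tlr8, Tlr9 and Tlr13 were followed across the white fat of obese mice and of mice returned to a low-fat diet. They were taken by name, as 10 of the 20411 genes with counts in both fat depots, the epididymal (eWAT) and the inguinal one (iWAT), and all 10 passed the filter on low counts in each depot. Poly(A) RNA of both depots was sequenced from 47 male C57BL/6JBomTac mice, which gave 94 libraries in 8 groups per depot. The obese group (n = 5) ate the high-fat diet D12492 for 18 weeks from the age of 10 weeks and was 28 weeks old. 3 regression groups (n = 6 each) ate it as long and were then fed the low-fat diet D12450J for 2, 6 or 12 weeks, so that they were 30, 34 or 40 weeks old. Each of these 4 groups had its own lean group of the same age (n = 6 each) and fed D12450J throughout. All mice were of one sex and strain and carried no engineered allele. They were housed 3 to a cage, and the sources used here do not tell which mice shared a cage, so p-values measure the spread between mice as if each were independent.

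Toll-like receptors are membrane proteins of innate immunity that bind conserved microbial molecules and some molecules released by damaged tissue. Tlr1, Tlr2, Tlr4, Tlr5 and Tlr6 sit mainly at the cell surface, where they recognise lipoproteins, lipopolysaccharide and flagellin, while Tlr3, Tlr7, Tlr8, Tlr9 and Tlr13 sit in endosomes and recognise nucleic acids. Most signal through the adaptor Myd88, and Tlr3 and, from endosomes, Tlr4 signal through Ticam1, towards NF-kB and interferon regulatory factors. In fat, macrophages carry many of them, and Tlr4 is also found on adipocytes and progenitor cells.

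Library totals ran from 1318944 to 25866576 counts in eWAT (median 8527647) and from 6268458 to 34327987 in iWAT (median 9646191). The smallest library, replicate 2 of the 2-week regression group in eWAT, had no Tlr6 count, which allows up to 2.27 CPM (3 counts of its total, counting error only). Adipocyte marker RNA, the summed CPM of 5 genes such as Adipoq, lay between 8249 and 22333 in eWAT and between 6878 and 18288 in iWAT. Some libraries carried signal of other tissue. In eWAT, 4 libraries held at least 100 CPM of epididymis and duct markers (lean replicate 2 at 2 weeks, lean replicate 5 at 6 weeks, lean replicate 1 at 12 weeks and obese replicate 5), and in iWAT 7 libraries held at least 100 CPM of B cell markers. The counts of receptors called without those libraries are given beside the results. CPM is the count of a gene scaled to the effective size of its library.

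In the eWAT of lean mice at the obesity time, levels per kilobase of exon were led by Tlr4 (5.59 ± 1.19 CPM per kb, SD, n = 6), followed by Tlr3 (4.23 ± 0.14), Tlr2 (3.30 ± 0.32) and Tlr5 (3.07 ± 0.59). Tlr7, Tlr8, Tlr9 and Tlr1 lay between 1.53 and 0.93 CPM per kb, and Tlr13 (0.60 ± 0.19) and Tlr6 (0.44 ± 0.11) were lowest. The gaps between Tlr2 and Tlr5, Tlr7 and Tlr8, Tlr8 and Tlr9, and Tlr13 and Tlr6 were smaller than the larger SD of each pair. In obese eWAT Tlr13 stood at the top of this order (9.95 ± 10.41 CPM per kb, n = 5), with Tlr2 (8.51 ± 4.44) and Tlr8 (8.21 ± 7.35) next, and no gap between neighbours exceeded the larger SD. Tlr13 was again the highest at 2 weeks (16.7 ± 9.9 CPM per kb) and 6 weeks (9.63 ± 9.79), and at 12 weeks Tlr2 (12.2 ± 6.4) and Tlr13 (11.4 ± 9.0) were the top pair, within their spread. Lean iWAT at the obesity time had the same 4 receptors on top, Tlr4 (6.57 ± 0.84), Tlr3 (4.58 ± 0.22), Tlr2 (4.10 ± 1.53) and Tlr5 (3.16 ± 0.31 CPM per kb), and Tlr6 again lowest (0.76 ± 0.31). Tlr7 (3.07 ± 1.19) came just below Tlr5, and Tlr13 (1.78 ± 1.51) just above Tlr6. Of the gaps between neighbours in this order, only that from Tlr4 to Tlr3 exceeded the larger SD of its pair. In lean iWAT at 2 weeks Tlr2, Tlr9, Tlr4 and Tlr1 led instead, also within their spread.

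Obese eWAT had more RNA of 9 of the 10 receptors than lean eWAT, and none had less. Among all genes tested 14.1% were called higher and 9.31% lower in this comparison by edgeR's quasi-likelihood test. A call here means a p under 0.05 after Benjamini-Hochberg adjustment across all tested genes. The median log2 fold change was 1.64 over the receptors and near 0 over all genes (-0.003). In 6 receptors (Tlr1, Tlr2, Tlr6, Tlr7, Tlr8 and Tlr13) every obese mouse was above every lean mouse, which held for 5.86% of all genes. The count stayed at 9 without the libraries with epididymis and duct signal. With runs of mouse numbers as a random block the count was 5, and the calls of Tlr13 (3.23 ± 1.57, adjusted p = 0.147), Tlr1 (adjusted p = 0.105), Tlr6 (0.0638) and Tlr7 (0.0501) were lost. Replicates 1 to 3 fitted apart gave 3. Tlr13, which recognises bacterial ribosomal RNA and has no human counterpart, rose most.

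The 5 obese eWAT libraries had 17.4, 71.3, 13.7, 108 and 3.89 CPM of Tlr13 (replicates 1 to 5), and the 6 lean libraries ran from 1.68 through a median of 2.49 to 3.64 CPM. All obese libraries were above all lean ones, replicates 4 and 2 far above the other obese ones and replicate 5 just above the lean range. Tlr13 rose 16.3-fold (log2 fold change 4.03 ± 0.76, SE, adjusted p = 0.00022). Tlr8, a receptor for single-stranded RNA and its breakdown products, had 12.2, 44.4, 12.0, 69.0 and 9.56 CPM in obese mice against 3.78 to 6.37 CPM (median 4.50) in lean mice, with replicates 4 and 2 again highest. It rose by 2.60 ± 0.49 on the log2 scale (6.04-fold, adjusted p = 0.000237). Tlr7, which recognises single-stranded RNA and lies next to Tlr8 on the X chromosome, had 9.47, 28.8, 13, 41.0 and 8.89 CPM against 5.70 to 6.87 CPM (median 6.07), with no overlap, and rose by 1.69 ± 0.37 (adjusted p = 0.00103). Tlr9, the receptor for unmethylated CpG DNA, had 5.12, 9.74, 12.3, 29.5 and 9.0 CPM against 3.36 to 5.43 CPM (median 4.56). It rose by 1.59 ± 0.37 (adjusted p = 0.00185), and obese replicate 1 fell inside the lean range. Tlr3, the receptor for double-stranded RNA, moved least of this class, with 29.9, 32.0, 25.7, 35.5 and 21.8 CPM against 21.1 to 23.1 CPM (median 21.9) and a log2 fold change of 0.40 ± 0.12 (adjusted p = 0.0137). 4 of the 5 obese mice were above the lean range of Tlr3. The annotated gene Gm45542 lies antisense within Tlr3, and the sources used here do not give the strand setting of the counting, so reads of the pair cannot be told apart.

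Among the surface receptors, Tlr1, which pairs with Tlr2 to bind triacylated lipopeptides, had 7.95, 25.5, 6.64, 63.2 and 6.11 CPM in obese eWAT against 2.60 to 3.799 CPM (median 3.08) in lean eWAT. The groups did not overlap, replicates 4 and 2 were the highest, and Tlr1 rose 7.04-fold (log2 2.81 ± 0.58, adjusted p = 0.000601). Tlr6, the other partner of Tlr2, had 2.83, 11.7, 3.04, 13.6 and 2.56 CPM against 1.14 to 2.06 CPM (median 1.602), also without overlap, and rose by 2.04 ± 0.49 (adjusted p = 0.00222). Tlr2 itself had 13.1, 29.0, 20.1, 47.3 and 18.8 CPM against 8.40 to 10.8 CPM (median 10.2), and rose by 1.37 ± 0.32 (adjusted p = 0.00189). Tlr1 and Tlr6 are close relatives and neighbours on chromosome 5. Of the 75-base stretches of their transcripts 10.6% and 9.25% occur in another gene as well, for Tlr6 in Tlr1 and for Tlr1 in Tlr6 and several further genes, so a share of their reads could be counted for either. Tlr4, the lipopolysaccharide receptor, had 31.7, 45.7, 30.6, 55.7 and 31.8 CPM against 22.6 to 38.4 CPM (median 30.8). Obese replicates 4 and 2 were above the lean range and the other 3 inside it, and Tlr4 was not called (0.33 ± 0.16, adjusted p = 0.141). Tlr5, the flagellin receptor, rose by 0.68 ± 0.21 (adjusted p = 0.016), with 28.1, 17.3, 33.5, 15.7 and 24.0 CPM against 10.5 to 17.3 CPM (median 15.8). Its order among the obese mice ran the other way, with replicates 4 and 2 the lowest and within the lean range.

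The summed CPM of 12 macrophage markers (such as Adgre1, Cd68, Csf1r and C1qa) followed the same mice, with 1770, 3606, 2153, 5777 and 1434 in the obese libraries against 846 to 1163 in the lean ones, and 11 of the 12 markers rose. Obese replicate 4 was the highest in 9 of the 10 receptors, all but Tlr5, and it alone held 50.3% of the group's Tlr13 CPM and 57.8% of its Tlr1 CPM. In bulk tissue more cells of a type and more RNA per cell cannot be told apart. The part of macrophage number in these differences was not tested beyond the ratios given further on. Of 6 markers of lipid-associated macrophages 4 rose, with a median log2 fold change of 4.24. Their sum was 414.4, 1212, 206, 1843 and 123 CPM in obese replicates 1 to 5 against 144 to 248 CPM in lean mice, so the same 2 mice were highest as for Tlr13. At 2, 6 and 12 weeks 5, 4 and 5 of them rose. Their part in the Tlr13 difference was not tested. Markers of classical dendritic cells were called higher in 5 of 6 cases, and those of T cells in 2 of 5. No B cell or adipocyte marker was called higher, of 5 each.

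**Figure D1:**
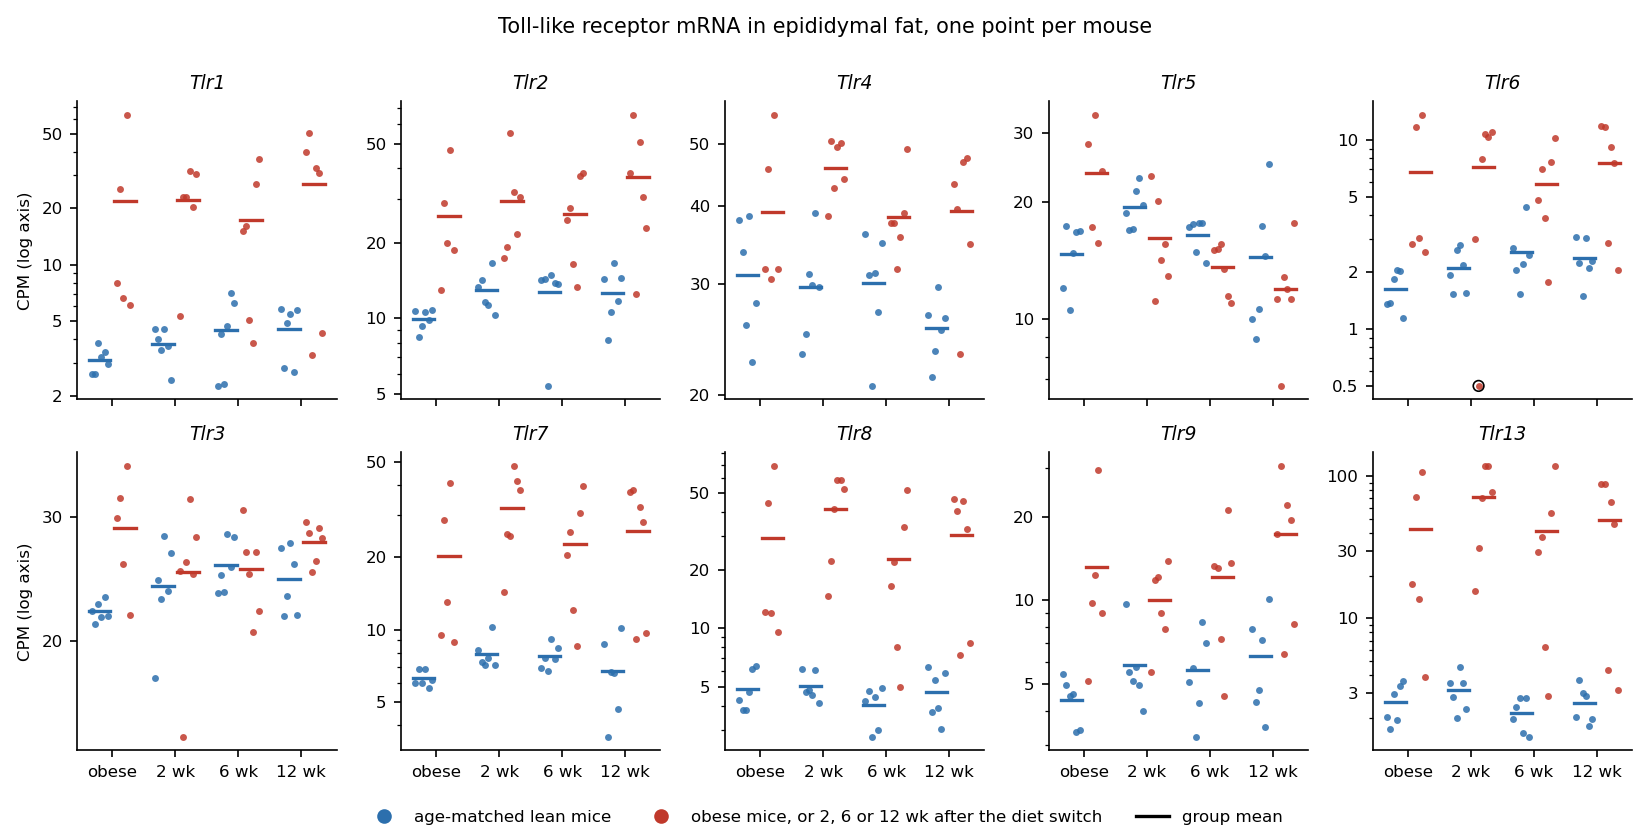
CPM of each receptor in every eWAT library on log axes, lean mice in blue, obese mice and mice 2, 6 or 12 weeks after the diet switch in red, bars at group means. The ringed Tlr6 point is the library with a count of 0, drawn at the bottom of its axis. Tlr13 and Tlr8 of obese mice lie above the lean mice throughout, while Tlr3 and Tlr5 overlap at every time.

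Because Tlr13, Tlr8 and Tlr1 had the largest differences and were high in the same mice, and Tlr5 ran the other way, the genomic sequence just before their annotated starts is shown for these 4. They are read 5′ to 3′ on the strand of the gene from RefSeq (GRCm38.p6), which held promoter entries for 8 of the 10 receptors. Capitals mark the letters GAGGAA or, on the other strand, TTCCTC, the core of sites of ETS factors such as PU.1, the macrophage lineage factor.
Tlr13 (chrX:106143025-106143203, plus strand, up to the start of the gene at chrX:106143204-106160493): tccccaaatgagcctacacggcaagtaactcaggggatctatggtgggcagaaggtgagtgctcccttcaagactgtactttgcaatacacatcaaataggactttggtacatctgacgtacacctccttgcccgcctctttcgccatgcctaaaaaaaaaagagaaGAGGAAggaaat
Tlr8 (chrX:167264330-167264579, minus strand, gene at chrX:167242696-167264329): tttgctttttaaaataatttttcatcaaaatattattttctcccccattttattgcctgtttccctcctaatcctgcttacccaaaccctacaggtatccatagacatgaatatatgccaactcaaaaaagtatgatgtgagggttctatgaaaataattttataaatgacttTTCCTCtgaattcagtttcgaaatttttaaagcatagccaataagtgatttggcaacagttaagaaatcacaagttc
Tlr1 (chr5:64933564-64933808, minus strand, gene at chr5:64924679-64933563): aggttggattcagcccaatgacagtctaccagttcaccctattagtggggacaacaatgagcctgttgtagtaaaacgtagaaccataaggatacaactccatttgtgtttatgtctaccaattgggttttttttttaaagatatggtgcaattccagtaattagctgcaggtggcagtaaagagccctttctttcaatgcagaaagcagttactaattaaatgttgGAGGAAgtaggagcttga
Tlr5 (chr1:182954538-182954787, plus strand, gene at chr1:182954788-182976044): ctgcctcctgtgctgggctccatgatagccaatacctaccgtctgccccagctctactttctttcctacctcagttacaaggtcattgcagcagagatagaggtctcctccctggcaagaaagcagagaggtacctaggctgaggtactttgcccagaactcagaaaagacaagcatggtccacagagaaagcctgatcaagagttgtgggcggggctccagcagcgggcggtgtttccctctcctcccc
The core occurred at 1 place before Tlr13, Tlr8 and Tlr1 and at none before Tlr5. Among 32851 promoters in the table it occurred in 17.1% within 179 bases, in 22.7% within 245 and in 23.3% within 250, so it is a common match. Within 250 bases it occurred in 4 of the 8 receptors with an entry, Tlr1, Tlr8, Tlr9 and Tlr13. It did not occur in Tlr2, Tlr3, Tlr5 and Tlr6, which were also called higher in obese eWAT. A second promoter entry of Tlr1 held none. The 4 sequences shown were chosen by the values of their genes, so their contrast with Tlr5 tests nothing. The interferon-stimulated response element, the AP-1 motif TGANTCA and the NF-kB motif, searched on both strands, did not occur in the 4 sequences shown. Each occurred in 1 of the 8 receptors with an entry, in Tlr6, Tlr9 and Tlr3 in that order. Over the 250-base windows of all promoters they occurred in 2.98%, 6.75% and 1.41%. These are matches of letters in short windows and were not tested for binding.

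After 2 weeks on the low-fat diet, 7 of the 10 receptors were higher in eWAT than in lean mice of the same age, beside 18.6% of all genes called higher and 17.1% lower, and the median log2 fold change was 1.51. Tlr13 ran from 15.7 through a median of 73.8 to 118 CPM, against 2.01, 3.17 and 4.53 CPM in lean mice. Every mouse was above the lean range, replicate 1 was the lowest and replicates 4 and 5 were the highest. It rose 23.3-fold (log2 fold change 4.54 ± 0.75, adjusted p = 1.64e-05). Tlr8 ran from 14.7 through 46.97 to 58.2 CPM against 4.11, 4.77 and 6.16 CPM, again without overlap, and rose by 3.03 ± 0.48 (adjusted p = 1.22e-05). Tlr7 rose by 2.02 ± 0.36 (32.1 ± 12.8 against 7.93 ± 1.20 CPM, SD), Tlr1 by 2.56 ± 0.56, Tlr6 by 1.82 ± 0.47, Tlr2 by 1.20 ± 0.31 and Tlr4 by 0.62 ± 0.16. Tlr4 thus passed the test here (38.5 to 50.7 CPM, median 46.8, against 23.3 to 39.0, median 29.8), with 5 of 6 mice above the lean range. Tlr9 missed the threshold (0.77 ± 0.36, adjusted p = 0.0924), as did Tlr3 (0.10 ± 0.12) and Tlr5 (-0.24 ± 0.20). The groups did not overlap in Tlr1, Tlr2, Tlr7, Tlr8 and Tlr13, 5 receptors, beside 6.99% of all genes. Without the library with duct signal the count was again 7, and all 12 macrophage markers rose, their sum reaching 1853 to 5587 CPM against 911 to 1285.

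At 6 weeks 6 receptors were called higher (Tlr1, Tlr2, Tlr7, Tlr8, Tlr9 and Tlr13), beside 5.56% of all genes called higher and 2.02% lower, and the median log2 fold change was 1.15. Tlr13 ran from 2.85 through 33.3 to 118 CPM against 1.47, 2.17 and 2.76 CPM. No regression mouse was inside the lean range, but replicates 4 and 3 (2.85 and 6.31 CPM) were close to it while replicate 6 was at 118 CPM. It rose by 4.25 ± 0.78 on the log2 scale (adjusted p = 0.00214). Tlr8 (4.99, 19.3 and 51.6 CPM as lowest, median and highest, against 2.76, 4.32 and 4.91) rose by 2.50 ± 0.49, and was the only other receptor without overlap, beside 2.06% of all genes. Tlr7 rose by 1.56 ± 0.36, Tlr1 by 1.94 ± 0.56, Tlr2 by 1.04 ± 0.31 and Tlr9 by 1.11 ± 0.36 (adjusted p = 0.0478). The Tlr9 call was lost in 7 of 11 alternatives and in 9 of 12 omissions of a single mouse. Regression replicate 5 had the highest Tlr9 (21.1 CPM) and the highest B cell marker sum in eWAT (113 CPM), and without it Tlr9 was at 0.90 (adjusted p = 0.149). Tlr6 (1.19 ± 0.47, adjusted p = 0.105) and Tlr4 (0.35 ± 0.16, adjusted p = 0.161) were not called. Replicates 3 and 4 also had the lowest macrophage marker sums of that group, 1752 and 1405 CPM, against 2642 to 5824 in the other 4. This was the least stable of the eWAT counts. It was 6 without the library with duct signal, 3 without lean replicate 3, regression replicate 5 or regression replicate 6, and 0 when replicates 1 to 3 and 4 to 6, which carry separate ranges of mouse numbers, were fitted apart. No gene at all was called in those 2 fits. Within them 9 and 8 of the 10 receptors were higher by value, without a share of all genes beside them. As most receptors were high in the same mice, these signs are not separate observations.

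At 12 weeks 8 receptors were called higher, all but Tlr3 and Tlr5, beside 10.8% of all genes called higher and 4.51% lower, with a median log2 fold change of 1.601. Tlr13 had 87.6, 88.5, 4.33, 65.8, 45.9 and 3.14 CPM in replicates 1 to 6, against 1.74 to 3.71 CPM (median 2.46) in lean mice of 40 weeks. Replicates 1, 2, 4 and 5 were far above the lean mice, while replicate 3 was just above the lean range and replicate 6 inside it. Tlr13 rose by 4.28 ± 0.76 (adjusted p = 0.000676). The same split into 4 high and 2 low mice was seen in Tlr1 (30.7 to 50.7 against 3.28 and 4.33 CPM), Tlr7 (28.2 to 38.3 against 9.11 and 9.63 CPM) and Tlr8 (32.6 to 46.6 against 7.32 and 8.44 CPM). Tlr8 was the only receptor with no overlap (lean highest 6.34 CPM, log2 fold change 2.68 ± 0.49), beside 0.88% of all genes. Macrophage marker sums split the mice likewise, at 3888 to 6249 CPM in the 4 and at 1259 and 1494 CPM in replicates 3 and 6, against 739 to 1679 CPM in lean mice. Tlr2 rose by 1.54 ± 0.31, Tlr1 by 2.56 ± 0.56, Tlr7 by 1.95 ± 0.36, Tlr6 by 1.66 ± 0.47, Tlr9 by 1.47 ± 0.36 and Tlr4 by 0.62 ± 0.16. Markers of T cells were called higher in 5 of 5 cases at this time, and of B cells in 2 of 5. B cell marker sums were 44.0, 97.1, 3.88, 45.1, 83.9 and 11.5 CPM in replicates 1 to 6, against 4.06 to 30.7 CPM in lean mice. Tlr9 was likewise highest in replicate 2 and lowest in replicates 3 and 6. The part of B cell RNA in the Tlr9 difference was not tested. The count was again 8 with the library with duct signal left out and under each omission of a single mouse. With runs of mouse numbers as a random block it was 5, and the calls of Tlr13 (3.55 ± 1.68, adjusted p = 0.125), Tlr1 (adjusted p = 0.0756) and Tlr6 (0.0576) were lost. Fitted apart, replicates 1 to 3 gave 6 and replicates 4 to 6, where only 1 gene was called in all, gave 0 with 9 of 10 receptors higher by value. No share of all genes is given for those signs, which come from the same mice and are not separate observations.

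No receptor was called in the test of whether its difference from lean mice changed between obesity and 2, 6 or 12 weeks, where 5.82%, 1.21% and 2.32% of all genes were called. At an unadjusted p under 0.05 there were 1, 2 and 1, with no share of all genes at that threshold given here. For Tlr13 the change was 0.51 ± 1.02, 0.22 ± 1.07 and 0.25 ± 1.05 on the log2 scale and for Tlr8 0.44 ± 0.67, -0.09 ± 0.69 and 0.08 ± 0.67. A change of the size of these standard errors could not have been told from none. Tlr5 came nearest to the threshold. Its difference from lean went from 0.68 ± 0.21 in obesity to -0.24 ± 0.20, -0.27 ± 0.21 and -0.26 ± 0.21. The changes of -0.92 ± 0.29 (adjusted p = 0.0525), -0.96 ± 0.30 (adjusted p = 0.111) and -0.95 ± 0.30 (adjusted p = 0.0806) share the obese and lean mice of the obesity time. DESeq2 called 2 receptor changes in place of 0, both of Tlr5, at 2 and 12 weeks. By value, 0 regression mice at 6 and 12 weeks were above the highest lean mouse in Tlr5 (10.98 to 15.6 against 13.9 to 17.7 CPM, and 6.73 to 17.6 against 8.91 to 25.02 CPM). Between lean mice of 28 and 40 weeks no receptor was called in eWAT or iWAT, beside 0.105% and 0.496% of all genes, and by edgeR none had an unadjusted p under 0.05. DESeq2 called none, but in eWAT it gave an adjusted p only for Tlr3, Tlr4 and Tlr13.

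Each receptor was also set against macrophage marker RNA of the same library, as its CPM per 1000 CPM of the 12 markers, in 80 exact permutation tests (two-sided, adjusted together, smallest possible p 0.00216). This ratio is a description of bulk RNA and does not assign a transcript to a cell. Of these tests 14 passed, all in eWAT, 4 with a higher and 10 with a lower ratio. Tlr13 was higher relative to the markers in obese mice, 11.5 ± 7.5 against 2.67 ± 1.02 (SD, log2 difference 1.85, adjusted p = 0.0495), and at 2 weeks, 16.6 ± 6.9 against 3.02 ± 0.85 (2.39, adjusted p = 0.0173). The 12 markers are those of macrophages in general, and the lipid-associated markers that were high in the same mice were not used as a denominator. In obesity the lowest Tlr13 ratio, 2.71, lay inside the lean range of 1.69 to 4.30. At 2 weeks every regression mouse exceeded every lean mouse in the Tlr13 ratio. At 6 and 12 weeks the differences of 2.03 and 1.73 missed the threshold (adjusted p = 0.0551 and 0.0866). Tlr8 was higher at 2 weeks (9.97 ± 2.52 against 4.91 ± 0.44, 0.99, adjusted p = 0.0173) and 12 weeks (7.25 ± 1.44 against 4.51 ± 1.07, 0.69, adjusted p = 0.0289). Relative to Adgre1 alone these differences were 0.03 and -0.13. Relative to the 12-marker sum Tlr7 kept nearly the same ratio, with differences between -0.01 and 0.12 at the 4 times. In lean and obese mice it was 6.36 ± 0.88 and 6.53 ± 1.02 per 1000 CPM. The sum includes C1qb, C1qc and C1qa, the genes nearest to Tlr7 in profile. Within the same libraries, Adgre1 alone as denominator shifts the difference of Tlr7 by as much as that of Tlr8.

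Tlr3, Tlr4 and Tlr5 had ratios below those of lean mice. Tlr3 was lower in obese mice (-1.01) and at 2 (-1.83) and 6 weeks (-1.42), at 2 weeks with 6.97 ± 3.35 against 23.7 ± 5.6 per 1000 CPM (adjusted p = 0.0173). Tlr4 was lower at the same times (-1.07, -1.23 and -1.04), and Tlr5 at 2 (-2.18) and 6 weeks (-1.68). At 12 weeks the differences of Tlr3 (-1.50), Tlr4 (-1.09) and Tlr5 (-1.91) were of like size but missed the threshold of the permutation tests (adjusted p = 0.0551 each). At 2 weeks Tlr2 (-0.79) and Tlr9 (-1.11) were lower as well. The marker sum itself was higher in all these comparisons, and the CPM of Tlr3 and Tlr5 at 2 and 6 weeks did not pass the test. No ratio passed in iWAT. With Adgre1 alone as the denominator 30 ratios passed, and with Csf1r alone 18.

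**Figure D2:**
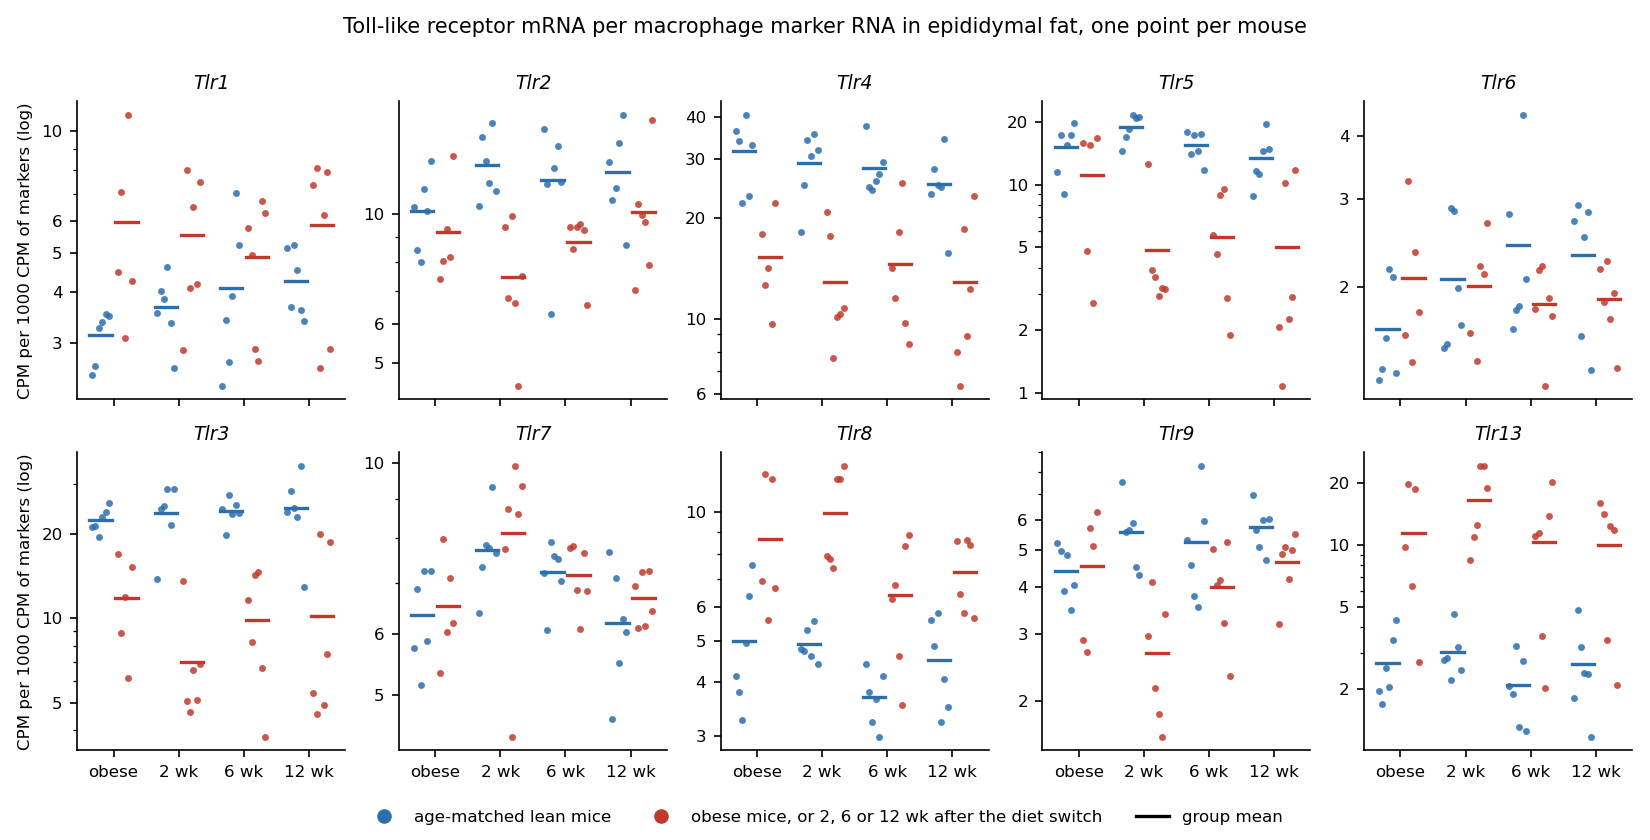
CPM of each receptor per 1000 CPM of 12 macrophage markers in every eWAT library on log axes, lean mice in blue, obese and regression mice in red, bars at group means; the library with no Tlr6 count is left out of that panel. Tlr13 lies higher in red at 2 weeks, Tlr7 lies level between the colours, and Tlr3 lies lower in red at 2 and 6 weeks.

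In iWAT 8 receptors were higher in obese mice, all but Tlr1 and Tlr9, beside 14.7% of all genes called higher and 15.5% lower, with a median log2 fold change of 1.01. Tlr13 had 45.8, 7.48, 21.2, 22.4 and 15.7 CPM in obese replicates 1 to 5 against 1.93 to 19.2 CPM (median 6.45) in lean mice, and rose by 1.53 ± 0.59 (adjusted p = 0.0449). 3 of the 5 obese mice were above the lean range, and the highest, replicate 1, was not the mouse that was highest in eWAT. The Tlr13 call was kept in only 6 of 11 alternatives and under 3 of 11 omissions of a single mouse. Tlr8 had 27.5, 12.9, 48.2, 20.7 and 20.2 CPM against 3.10 to 14.2 CPM (median 10.2). It rose by 1.49 ± 0.42 (adjusted p = 0.00649), with obese replicate 2 inside the lean range. Tlr2 had 23.7, 14.2, 72.9, 20.2 and 22.0 CPM against 7.03 to 18.8 CPM (median 12.99), with replicate 3 far above the rest, and rose by 1.30 ± 0.35 (adjusted p = 0.00424). Tlr7 rose by 1.09 ± 0.37 (17.7 to 43.3 against 5.86 to 17.2 CPM), Tlr6 by 0.96 ± 0.37, Tlr5 by 0.65 ± 0.25 (17.9 to 38.2 against 12.8 to 16.7 CPM), Tlr4 by 0.49 ± 0.18 and Tlr3 by 0.32 ± 0.11 (28.1 to 31.3 against 22.6 to 25.1 CPM). Tlr3, Tlr5 and Tlr7 were the 3 receptors without overlap, beside 6.86% of all genes. Tlr1 (16.1 ± 7.7 against 7.62 ± 3.73 CPM, 1.06 ± 0.67, adjusted p = 0.239) and Tlr9 (16.2 ± 7.3 against 8.68 ± 3.77 CPM, 0.89 ± 0.50, adjusted p = 0.18) did not pass. With the libraries carrying B cell signal left out of the fit, which were in other groups, 9 were called. Of the macrophage markers 11 of 12 rose, with sums of 1922 to 6562 CPM against 867 to 2134 CPM. The count depended on single mice. It was 2 without lean replicate 4, 3 without lean replicate 3, obese replicate 1 or obese replicate 3, and 5 without lean replicate 6 or obese replicate 4. Replicates 1 to 3 fitted apart gave 7 and replicates 4 to 6 gave 0, with all 10 higher by value in each. Most receptors were high in the same mice, so these signs are not separate observations, and no share of all genes is given.

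At 2 weeks Tlr4 alone was called higher in iWAT (0.58 ± 0.17, adjusted p = 0.0136), beside 9.44% of all genes called higher and 9.37% lower. It ran from 41.6 through 53.9 to 109 CPM against 34.5, 41.1 and 48.4 CPM in lean mice. 3 of 6 regression mice were above the lean range, and replicate 5 was the highest. No receptor was called without that mouse, nor with the libraries carrying B cell signal left out. Replicate 5 was also the highest in Tlr13 (96.0 CPM), Tlr7 (87.5), Tlr8 (68.3), Tlr1 (44.6), Tlr5 (47.8) and Tlr9 (32.5 CPM), and had the largest macrophage marker sum in iWAT (8247 CPM). Tlr13 was at 35.2 ± 30.6 against 14.2 ± 10.3 CPM (1.29 ± 0.56, adjusted p = 0.1) and Tlr8 at 26.5 ± 21.0 against 15.5 ± 3.8 CPM (0.77 ± 0.40, adjusted p = 0.176). The lean group of this time stood above the other lean iWAT groups. It had 14.2 CPM of Tlr13 on average, against 7.66, 5.87 and 3.89 CPM at the obesity time, 6 and 12 weeks, and a mean macrophage marker sum of 2825 CPM against 1602, 1452 and 1376. No receptor's diet and lean groups were without overlap at 2 weeks, beside 2.09% of all genes.

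At 6 and 12 weeks no receptor was called in iWAT by edgeR, beside 1.04% and 0.0288% of all genes. No receptor had an unadjusted p under 0.05 at either time, and DESeq2 called none. Log2 fold changes lay between -0.27 (Tlr13) and 0.44 (Tlr7) at 6 weeks and between -0.25 (Tlr5) and 0.71 (Tlr6) at 12 weeks. Tlr4 was the 1 receptor whose groups did not overlap at 6 weeks, with 38.3 to 46.9 against 32.5 to 37.8 CPM (0.29 ± 0.17, adjusted p = 0.37), beside 1.4% of all genes. At 12 weeks there was none, beside 0.424%. The change of the difference from obesity to 2, 6 and 12 weeks was called for no receptor, beside 4%, 1.38% and 4.85% of all genes. At an unadjusted p under 0.05 there were 0, 3 and 1 receptors, a threshold at which no share of all genes is given here. DESeq2 called none. For Tlr13 these changes were -0.23 ± 0.81, -1.80 ± 0.83 and -1.13 ± 0.85. A difference in calls between obesity and later times is therefore not by itself a tested change.

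**Figure D3:**
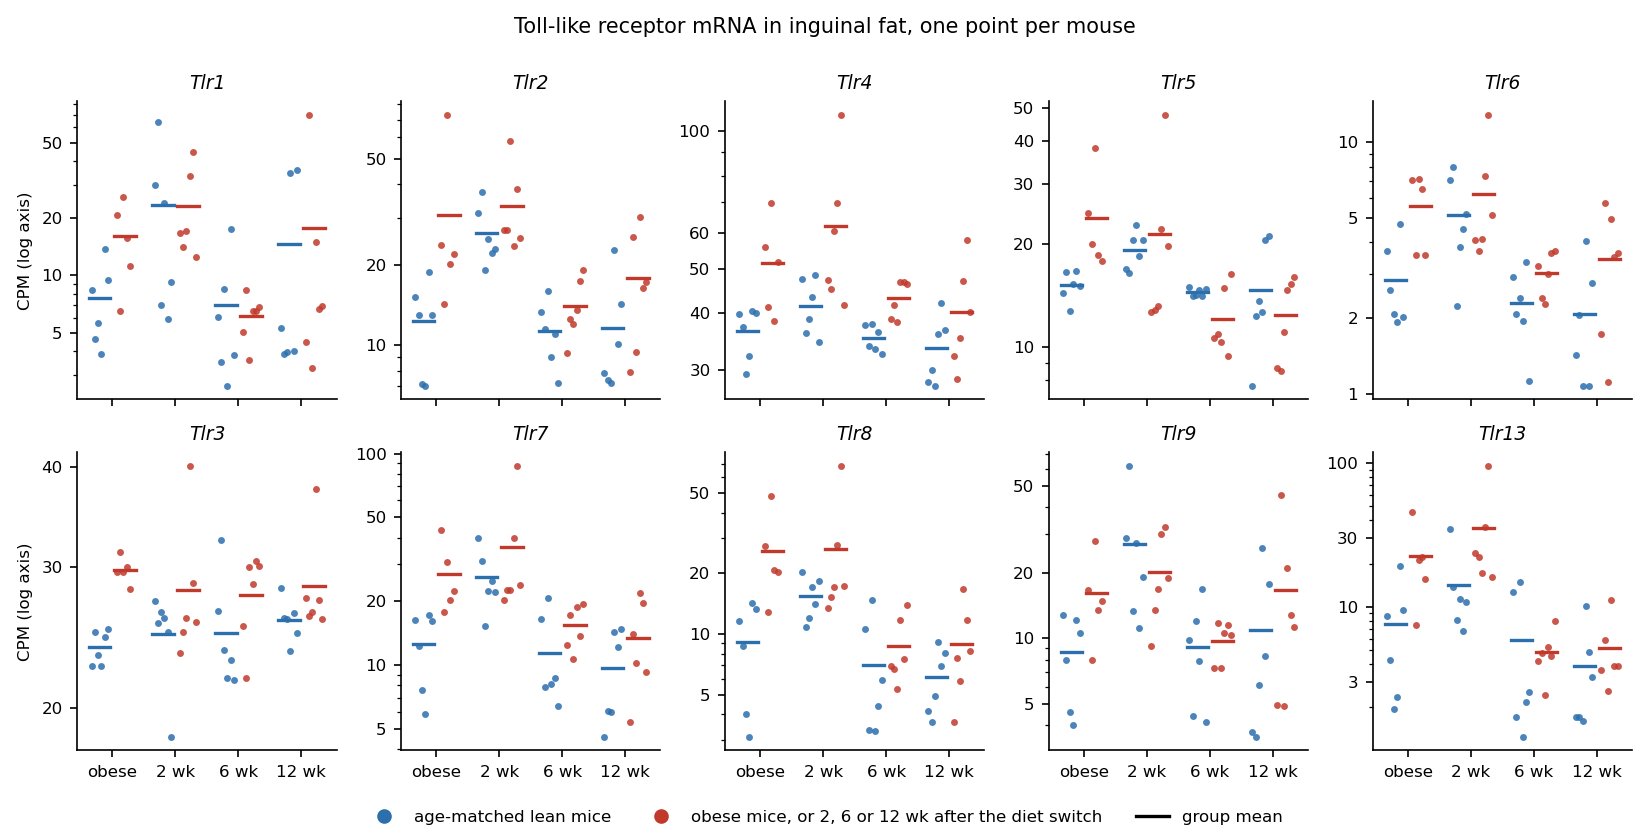
CPM of each receptor in every iWAT library on log axes, lean mice in blue, obese and regression mice in red, bars at group means. The obese mice lie above the lean mice without overlap in Tlr3, Tlr5 and Tlr7, the highest 2-week point in most panels is replicate 5, and the colours overlap at 12 weeks in every panel.

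Tlr1 and Tlr9 were high in the iWAT libraries with high B cell markers. Lymph nodes are embedded in the inguinal pad, and B cells are known to carry Tlr9 and Tlr1. In the 7 libraries with at least 100 CPM of 5 B cell markers (such as Cd79a and Ms4a1) Tlr1 ran from 17.6 through a median of 34.4 to 69.9 CPM, against 2.63, 6.78 and 44.6 CPM in the other 40. Tlr9 ran from 16.8 through 27.5 to 61.9 CPM against 3.54, 10.8 and 32.5 CPM. The highest were lean replicate 2 at 2 weeks (B cell sum 640.4 CPM, Tlr1 64.5 and Tlr9 61.9 CPM) and regression replicate 2 at 12 weeks (794, 69.9 and 45.4 CPM). Tlr4 (median 36.3 against 40.1 CPM) and Tlr7 (14.8 against 16.9 CPM) had lower medians in those libraries, and Tlr2 (23.5 against 15.6 CPM), Tlr13 (10.2 against 7.16 CPM) and Tlr6 (4.06 against 3.36 CPM) higher ones. 5 of the 7 were lean (replicates 2 and 4 at 2 weeks, 5 at 6 weeks, 4 and 6 at 12 weeks) and 2 were regression libraries (replicate 4 at 2 weeks and replicate 2 at 12 weeks). The part of this signal in the iWAT values of Tlr1 and Tlr9 was not tested apart from the counts without those libraries, which were 9, 0, 0 and 0 at the 4 times. In eWAT the B cell sums were lower, with 3.88 to 113 CPM over all groups.

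**Figure D4:**
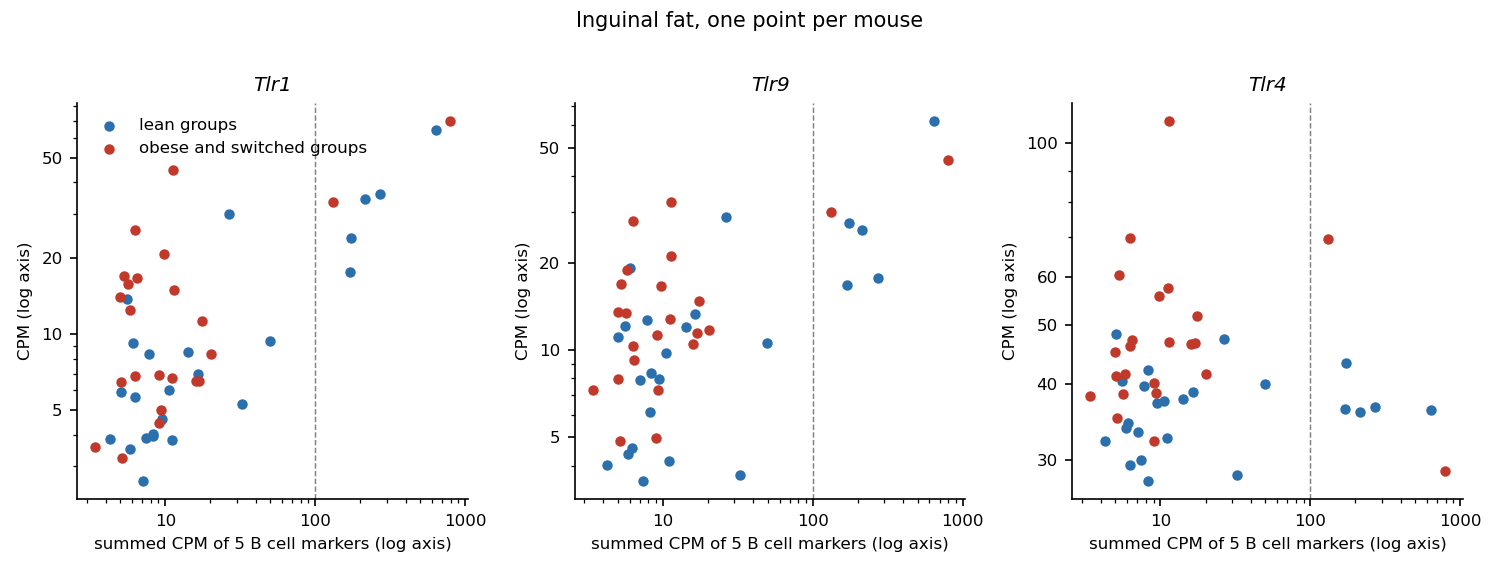
CPM of Tlr1, Tlr9 and Tlr4 in each iWAT library against the summed CPM of 5 B cell markers, both axes logarithmic, lean groups in blue, obese and regression groups in red; the dashed line marks 100 CPM. Right of the line Tlr1 starts at 17.6 and Tlr9 at 16.8 CPM, whereas Tlr4 spans a range like that on the left.

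Between the depots of the 24 lean mice, 7 receptors were lower in eWAT than in iWAT of the same mouse (31.2% of all genes were lower and 59.3% differed either way). Tlr1 (-1.32 ± 0.28), Tlr13 (-1.30 ± 0.34), Tlr9 (-1.10 ± 0.19), Tlr7 (-0.95 ± 0.18) and Tlr8 (-0.92 ± 0.22) had the largest differences on the log2 scale, and Tlr6 (-0.46 ± 0.20, adjusted p = 0.0421) and Tlr4 (-0.41 ± 0.08) followed. On a common scale of both depots, Tlr7 had a median of 6.75 CPM in eWAT (3.47 to 10.0) and of 15.0 CPM in iWAT (4.62 to 41.2), and was higher in iWAT in 19 of the 24 mice. Tlr4 was higher there in 22 of 24, at 37.6 ± 5.9 against 28.3 ± 5.3 CPM. The call of Tlr13 was lost within replicates 4 to 6 (adjusted p = 0.056) and with mouse as a random block (0.0949), and that of Tlr6 within both ranges of mouse numbers (0.181 and 0.227) and with mouse as a random block (0.102). Markers of other cells moved with these differences. Of the 24 lean iWAT libraries 5 had B cell sums of at least 100 CPM, and Tlr1 had a mean of 13.6 but a median of 6.71 CPM in lean iWAT. Mean macrophage marker sums were 1376 to 2825 CPM in the 4 lean iWAT groups against 993 to 1077 CPM in lean eWAT. Their part was not tested. Tlr5 did not differ detectably (-0.05 ± 0.09, adjusted p = 0.664, 14 of 24 mice higher in iWAT).

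The response to diet differed between the depots at 2 weeks for 3 receptors, all larger in eWAT, beside 3.86% of all genes. The differences of the log2 fold changes were 3.07 ± 0.80 for Tlr13 (adjusted p = 0.0124), 2.32 ± 0.58 for Tlr8 (adjusted p = 0.00947) and 1.59 ± 0.47 for Tlr7 (adjusted p = 0.0282). The elevated lean iWAT group described above enters this contrast. Fitted within either range of mouse numbers, 0 receptors passed, and with mouse as a random block the call of Tlr13 was lost (adjusted p = 0.06). At the other times none passed, beside 1.32%, 0.597% and 0.0542% of all genes called in either direction in obesity and at 6 and 12 weeks. With an unadjusted p under 0.05 there were 0, 3 and 4, and DESeq2 called 0, 1 and 2. The shares above are those of adjusted edgeR calls, and no share of all genes is given here for these counts. The values for Tlr13 were 1.66 ± 0.92 in obesity, 3.60 ± 0.95 at 6 weeks (adjusted p = 0.0576) and 3.13 ± 0.93 at 12 weeks (adjusted p = 0.0877).

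**Figure D5:**
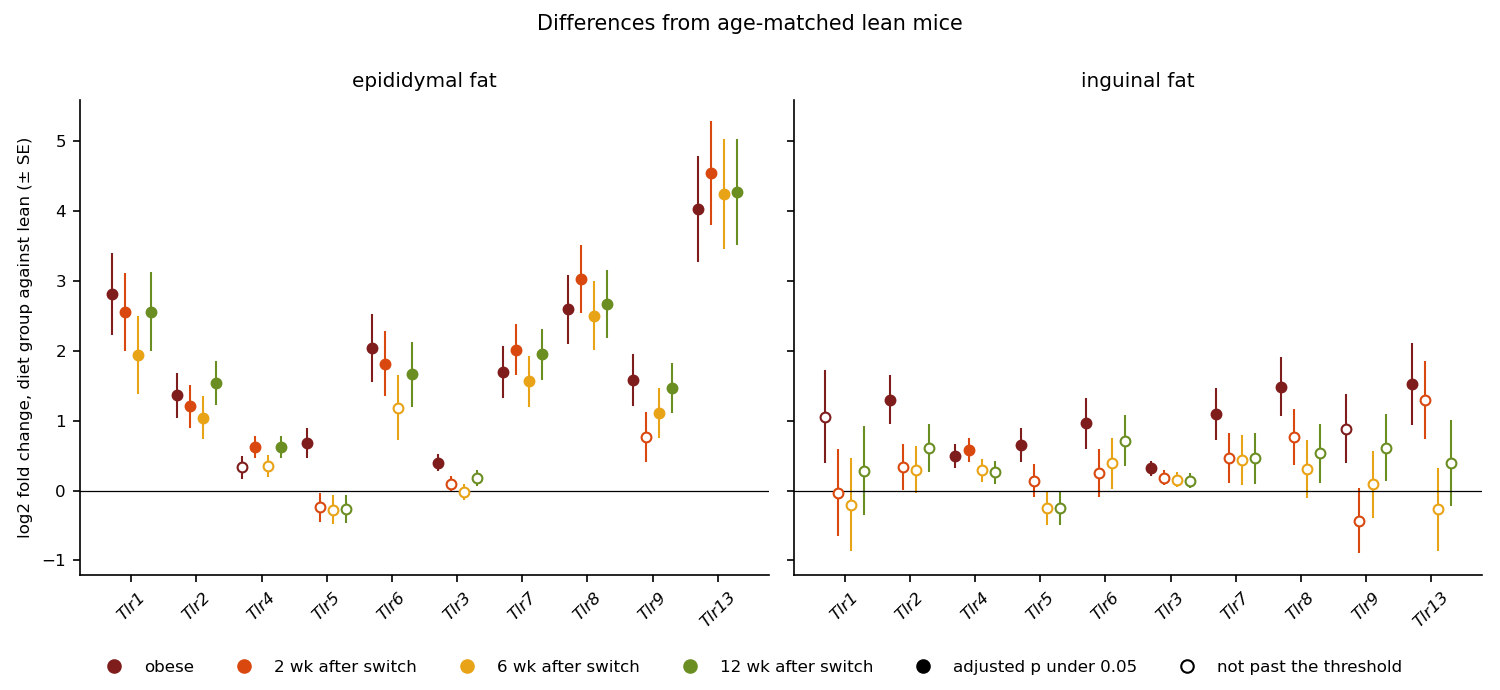
Log2 fold change of each receptor against lean mice of the same age (± SE of the fit) at the 4 times in eWAT and iWAT; filled points passed an adjusted p under 0.05. In eWAT Tlr13 lies between 4.03 and 4.54 at all 4 times, and in iWAT the filled points are those of obesity and of Tlr4 at 2 weeks.

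Over the 16 group means of both depots, the genes whose centred log2 CPM profiles lay closest to each receptor among 12821 genes were named by their root mean square difference. Tlr8 lay closest to Adgre1 (0.14), which encodes the macrophage surface protein F4/80, and Tlr7 to the complement genes C1qb (0.13), C1qc (0.14) and C1qa (0.15). Fyb (0.15) and Vav1 (0.17) were among the profiles nearest to Tlr1. Tlr2 and Tlr6 were among each other's nearest profiles (0.16). Tlr4 lay closest to Slfn5 (0.06), Parp14 (0.09) and Rai14 (0.10), Tlr9 to Pik3cd (0.20), and Tlr13, with the widest profile, to Adam8 (0.33), Slc37a2 (0.33) and Ctss (0.37). Tlr3 lay closest to Usp25 (0.08) and Tlr5 to Gpx7 (0.20). The points share libraries, and no test was made.

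The other genes of the pathway were read from lists. Their counts stand beside 14.1%, 18.6%, 5.56% and 10.8% of all genes called higher in eWAT at the 4 times, and 14.7% and 9.44% in iWAT in obesity and at 2 weeks. The shares called lower were 9.31%, 17.1%, 2.02% and 4.51% in eWAT, and 15.5% and 9.37% in iWAT. Over all lists, 84 tested genes, edgeR called 1 in iWAT at 6 weeks and 0 at 12 weeks. There, 11 and 3 had an unadjusted p under 0.05, with no share of all genes at that threshold given here. Of 6 co-receptors and accessory proteins 4 rose in obese eWAT, 4 at 2 weeks, 2 at 6 weeks and 3 at 12 weeks, and in iWAT 2, 1, 0 and 0. Cd180, a Toll-like receptor homologue of B cells and myeloid cells, rose by 3.12 ± 0.62, 3.02 ± 0.60, 2.70 ± 0.61 and 3.26 ± 0.62 in eWAT, and in obese mice ran from 7.67 through 17.5 to 121 CPM, against 4.07 to 6.06 CPM. Cd14, which hands lipopolysaccharide to Tlr4, rose in obese eWAT (0.78 ± 0.29), at 2 (0.90 ± 0.28) and 12 weeks (0.83 ± 0.28), and in iWAT in obesity (0.69 ± 0.22) and at 2 weeks (0.63 ± 0.21). Lbp, the lipopolysaccharide-binding protein, rose in obese iWAT by 1.98 ± 0.23 (117 against 29.7 CPM, adjusted p = 1.03e-07) and in obese eWAT by 0.64 ± 0.21, and was not called later in either depot. Cd36 rose at 2 weeks in eWAT (0.36 ± 0.14).

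Of 11 genes for the trafficking and cleavage of endosomal receptors 6, 9, 6 and 7 rose in eWAT and 5, 4, 0 and 0 in iWAT, with median log2 fold changes of 0.59, 0.92, 0.62 and 0.72 in eWAT. Unc93b1, which escorts nucleic acid receptors to endosomes, rose by 1.28 ± 0.27, 1.42 ± 0.27, 1.14 ± 0.27 and 1.31 ± 0.27 in eWAT (213 against 87.9 CPM in obesity) and by 0.77 ± 0.28 in obese iWAT. The lysosomal protease Ctsb rose at all 4 times in eWAT (0.59 to 0.86), and Ctsl at 2 weeks in eWAT (0.92 ± 0.16) and in iWAT in obesity (0.50 ± 0.17) and at 2 weeks (0.61 ± 0.16). Hsp90b1, the chaperone gp96, rose at 2 weeks in both depots (0.53 ± 0.10 and 0.53 ± 0.11) and at 12 weeks in eWAT (0.34 ± 0.10). Chosen after its values were seen, Slc15a3, a lysosomal transporter of peptides and histidine, had the largest difference of the list in obese eWAT (3.57 ± 0.70).

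Of 5 adaptors 2, 2, 0 and 3 rose in eWAT (3 had an unadjusted p under 0.05 at 6 weeks) and 2, 1, 0 and 0 in iWAT. Ticam2, the bridging adaptor of Tlr4 and Ticam1, rose by 1.69 ± 0.36 in obese eWAT, 1.47 ± 0.35 at 2 weeks and 1.52 ± 0.35 at 12 weeks, and by 1.23 ± 0.30 in obese iWAT. Myd88 rose by 0.36 ± 0.12 and 0.46 ± 0.12 in eWAT in obesity and at 2 weeks, and by 0.60 ± 0.15 in iWAT at 2 weeks. Tirap rose in obese iWAT (0.34 ± 0.12) and at 12 weeks in eWAT (0.41 ± 0.10), and Ticam1 at 12 weeks in eWAT (0.40 ± 0.14). Of 23 signalling genes 7, 11, 4 and 7 rose and 2, 2, 1 and 0 fell in eWAT, and in iWAT 4, 1, 1 and 0 rose and 2, 3, 0 and 0 fell, with medians between 0.02 and 0.17. In obesity and at 2 weeks the falls in eWAT, and rises and falls in iWAT, were near or below the shares of all genes. Irak1, the receptor-proximal kinase, fell in obesity and at 2 weeks in eWAT (-0.25 ± 0.06 and -0.30 ± 0.06) and in iWAT (-0.27 ± 0.07 and -0.27 ± 0.06). Map3k7, the kinase TAK1, fell at 2 weeks in eWAT (-0.19 ± 0.06) and iWAT (-0.20 ± 0.07), while Rela and Tab2 were called at no time. Of 10 negative regulators 5, 6, 2 and 4 rose in eWAT and 3, 2, 0 and 0 in iWAT, and 1, Tollip at 2 weeks in eWAT (-0.13 ± 0.05), fell. Irak3, the inhibitory kinase of macrophages, rose in eWAT in obesity (0.46 ± 0.15), at 2 (0.45 ± 0.14) and 12 weeks (0.56 ± 0.14), and in iWAT in obesity (0.52 ± 0.15) and at 2 weeks (0.58 ± 0.15). Cyld and Rnf216 were called at no time.

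Of 7 genes for endogenous proteins described as ligands 3, 2, 1 and 1 rose in eWAT and 3, 3, 0 and 0 in iWAT, and 1 fell in obesity in each depot. Biglycan, Bgn, rose in obese eWAT (0.74 ± 0.21) and iWAT (0.93 ± 0.23) and at 2 weeks in eWAT (0.87 ± 0.20). Vcan, which encodes versican, rose in iWAT in obesity (1.32 ± 0.28) and at 2 weeks (0.90 ± 0.26), and Tnc, which encodes tenascin C, in obese eWAT (1.17 ± 0.35). The gene that fell was Hmgb1 (-0.32 ± 0.07 in obese eWAT and -0.26 ± 0.07 in obese iWAT). Named after their values were seen, S100a8 and S100a9, which form calprotectin, rose at 2 weeks in iWAT (2.65 ± 0.65 and 3.06 ± 0.83). Among 14 tested NF-kB target genes 5, 9, 5 and 9 rose in eWAT and 1, 4, 0 and 0 in iWAT. Icam1 rose in eWAT at all 4 times (0.78 ± 0.23, 1.43 ± 0.23, 0.77 ± 0.22 and 0.90 ± 0.22). The inhibitor gene Nfkbia rose at 2 (0.75 ± 0.12) and 12 weeks (0.57 ± 0.12) in eWAT and at 2 weeks in iWAT (0.74 ± 0.21), with -0.05 ± 0.13 in obese eWAT, and Nfkbiz rose at 2 (0.52 ± 0.20) and 12 weeks (0.77 ± 0.20). Ptgs2 was high where duct markers were. Its call in obese eWAT (5.64 ± 1.81) came with 309 CPM in replicate 5, whose duct marker sum was 1234 CPM, and at most 3.73 CPM in the other obese mice. Its lower calls at 2 and 6 weeks (-5.24 ± 1.79 and -6.91 ± 1.78) came with 464.3 CPM in lean replicate 2 and 1292 CPM in lean replicate 5, whose duct sums were 2601 and 5784 CPM. Nos2 was the other of the 2 genes lower at 2 weeks (-0.88), named after its value was seen. Of 8 tested interferon-stimulated genes 1, 2, 0 and 2 rose in eWAT (3 with an unadjusted p under 0.05 at 6 weeks), which is near the share of all genes in obesity and at 2 weeks, and in iWAT none at any time (by edgeR at an unadjusted p under 0.05, 0, 4, 0 and 0). Rsad2 rose at 2 weeks in eWAT (0.73 ± 0.20), and Ifit1, Ifit2 and Ifit3 were called at no time.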

How the data were processed

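Gene counts of poly(A) RNA from 47 eWAT and 47 iWAT libraries were used as the authors deposited them. Per the submitters' processing notes, STAR 2.4.1c, the mm10 build, R 4.2.2 and DESeq2 1.38.3 were used, while no source used here gives the counting program, annotation or strand setting. Groups came from the sample titles, and 0 columns belonged to other samples.

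edgeR 4.0.16 (R 4.3.3, limma 3.58.1) was fitted per depot on all 8 groups with TMM scaling, a filter on low counts by group and its quasi-likelihood test, with Benjamini-Hochberg adjustment over the 14323 (eWAT) or 13899 (iWAT) genes tested. Depots were compared in a joint fit of 94 libraries and 14749 genes with each mouse as a block. DESeq2 1.42.0 was an alternative. Log2 fold changes are given with the standard error of the fit. Ratios to macrophage markers were compared by exact permutation in Python 3.11.15 (scipy 1.17.1).

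The fit was tested on simulated counts for obese against lean eWAT (14207 genes), where 78% of genes changed by 1 and 98% of those changed by 4 on the log2 scale were recovered and 3.74% of calls were false. The simulation gave every group the same dispersion per gene and drew mice independently. Its rates therefore do not cover groups of unequal spread or mice that shared a cage. No library repeated another of its own group within sampling noise (115 pairs per depot). Libraries of different groups or depots were not compared in this way. Replicate numbers were not taken to pair the mice of different groups. At most 3 of 6 same-numbered pairs correlated above 0.1, with values from -0.60 to 0.63. So few pairs cannot exclude a pairing.

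The members and gene lists were chosen with earlier results of these data known. All members were named, and of each list the 4 genes with the highest mean CPM, any list member that was the only one called, and for each member the 3 genes with the most similar profile. A gene that this rule would name is not reported here. Leaving out libraries with at least 100 CPM of epididymis and duct markers in eWAT or of B cell markers in iWAT was added after seeing the data. Interval and depth statements cover counting error only.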

Additional observations from a re-analysis of the deposited data

Results flagged for a closer look

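Among 160 groups of a receptor's values, 15 held a mouse set apart from the rest of its group by Dixon's criterion. Of these, 3 were in eWAT and 12 in iWAT. The criterion's nominal rate of about 1 in 20 assumes normal values, and it was applied to raw CPM. The receptors were measured in the same libraries, so the flags are not separate observations and cannot be weighed against that rate. In iWAT at 2 weeks, regression replicate 5 stood apart in Tlr13 (96.0 CPM), Tlr7 (87.5 CPM), Tlr8 (68.3 CPM) and Tlr5 (47.8 CPM), and regression replicate 4 in Tlr3 (40.1 CPM). In the lean mice of that time, replicate 1 stood apart in Tlr13 (34.6 CPM) and replicate 2 in Tlr9 (61.9 CPM), while replicate 6 was set low in Tlr3 (18.4 CPM). Regression replicate 2 at 12 weeks stood apart in Tlr1 (69.9 CPM), and regression replicate 4 in Tlr3 (37.5 CPM). Obese replicate 3 stood apart in Tlr2 (72.9 CPM) and lean replicate 4 at 12 weeks in Tlr13 (10.2 CPM). In eWAT, lean replicate 3 at 6 weeks was set low in Tlr2 (5.37 CPM), and among lean mice at 2 weeks replicate 5 stood apart in Tlr7 (10.2 CPM) and replicate 1 in Tlr9 (9.70 CPM).

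The response at 2 weeks differed between the depots by the interaction test for Tlr13 (3.07 on the log2 scale), Tlr8 (2.32) and Tlr7 (1.59), each larger in eWAT. The call of Tlr13 was lost with mouse as a random block (adjusted p = 0.06), and all 3 were lost within either range of mouse numbers.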

How the results depend on the processing

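Counts of receptors called stayed within 1.5 times under DESeq2's size factors and without a count filter (17 of 17 each). With the replicate number as a block they were 9, 7, 5 and 8 in eWAT and 7, 1, 0 and 0 in iWAT, so the block moved none by over 1.5 times. Within replicates 1 to 3 the eWAT counts were 3 in obesity, 4 at 2 weeks and 0 at 6 weeks, and the iWAT count at 2 weeks was 0. Within replicates 4 to 6 they were 0 at 6 and 0 at 12 weeks in eWAT, and 0 in obesity and 2 at 2 weeks in iWAT. In both ranges the depot difference at 2 weeks gave 0. With runs of mouse numbers as a random block eWAT gave 5, 0 and 5 in obesity and at 6 and 12 weeks, and iWAT 3 in obesity and 0 at 2 weeks. The iWAT count at 2 weeks was 0 with the compared groups alone, 2 with other tissue signal as terms and 0 with those libraries left out. DESeq2 called 2 changes from obesity in eWAT and 1 and 2 depot differences at 6 and 12 weeks. Leaving out each replicate in turn gave, in eWAT, 8 to 9 in obesity, 7 to 8 at 2 weeks, 3 to 7 at 6 weeks and 8 at 12 weeks. In iWAT it gave 2 to 8 in obesity, 0 to 2 at 2 weeks and 0 later, and for the ratios 12 to 19. Ratios to Adgre1 alone passed 30 times, and Tlr8 at 12 weeks turned to -0.13. Tlr5, not called, turned to 0.10 at 2 weeks and 0.058 at 12 weeks within replicates 1 to 3 in eWAT. Tlr3 at 6 weeks in eWAT (-0.02), which was not called, turned to 0.0089 without a filter, 0.20 within replicates 1 to 3, 0.0012 with libraries of other tissue signal left out, and, with 1 mouse left out, lay between -0.0798 and 0.037, above 0 in 5 cases. The cause was not tested. The library with 1318944 counts limits what can be read from Tlr6 at 2 weeks in eWAT.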

Other observations

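The remaining receptors of the family, Tlr11 and Tlr12, were low. Tlr11 rose in eWAT at 12 weeks (3.51 against 1.29 CPM, log2 fold change 1.44 ± 0.44) and fell in iWAT at 2 weeks (-1.30 ± 0.43). Tlr12, known from plasmacytoid dendritic cells, fell in iWAT at 2 weeks (0.512 against 3.71 CPM, -2.86 ± 0.96), beside 9.37% of all genes called lower. In that comparison 3 of 4 plasmacytoid dendritic cell markers and 3 of 5 T cell markers fell as well. Its lean replicates 2 and 4 had B cell marker sums of 640 and 174 CPM, and regression replicate 4 had 132 CPM. No value without these libraries is given here. The part of such cells or of lymph node in the iWAT differences of Tlr11 and Tlr12 was not tested.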
